A study of Mus musculus with 12 samples.

Results

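The elastic fibre and microfibril genes described here are 10 genes of the mouse genome, taken by name from the 39179 genes of the count table: *Fbn1*, *Fbn2*, *Eln*, *Fbln1*, *Fbln2*, *Fbln5*, *Efemp1*, *Efemp2*, *Mfap4* and *Mfap5*. They were chosen by function, with earlier results of these data known, and all 10 were found in the table. In every comparison 6 of them carried enough counts for a test and 4 did not. Their RNA was measured in pancreatic stellate cells (PSCs), the fibroblast-like cells of the pancreas from which stromal fibroblasts of pancreatic tumours can arise.

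The study compared PSCs grown alone (mono-PSCs), with pancreatic cancer cells (PCCs) in a 2-way co-culture (2W-PSCs), or with PCCs and macrophages (MØs) in a 3-way co-culture (3W-PSCs), to ask how neighbouring cells change the fibroblast. Each culture was kept for 72 h and had 4 replicates, which the series calls biological, so 12 libraries were made from PSCs sorted on mCherry. All groups held the same PSCs, an mCherry-expressing line immortalised with SV40 that is 1 clone and is labelled with the strain C57BL/6, so the replicates measure the spread between cultures of that line and not between mice. The co-cultures also held an EGFP-labelled PCC line from a mouse pancreatic tumour and, in the 3-way culture, TagBFP-labelled cells of the macrophage line RAW264.7. The total number of cells plated was the same in every culture, so the co-cultures started with fewer PSCs than the mono-culture. The part of PSC number in the results was not tested. All cultures used a medium low in serum.

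Elastic fibres give tissues recoil. Their core is elastin, which is deposited on a scaffold of microfibrils built mainly from fibrillins and then cross-linked by lysyl oxidases. Fibulins tie the parts together: fibulin-4 and fibulin-5, encoded by *Efemp2* and *Fbln5*, bring elastin and lysyl oxidases to the microfibril, and mice without *Fbln5* have loose skin and tortuous vessels. Fibrillin microfibrils also hold latent TGF-β through the latent TGF-β binding proteins, which links this matrix to the growth factor that turns stellate cells into matrix-producing fibroblasts.

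The promoter of *Fbln5* is shown because this gene had the largest called change among the members. *Fbln5* is on chromosome 12, minus strand, from 101746565 to 101819055 on GRCm38 in GENCODE M21, and RefSeq lists 2 start sites for it on GRCm38.p6. The 250 bases before the first of these, at chr12:101819120-101819369 on the minus strand, were 65.2% G or C and read as follows, 5′ to 3′, with the 2 matches to the GC box, GGGCGG on either strand, in capitals.
Fbln5: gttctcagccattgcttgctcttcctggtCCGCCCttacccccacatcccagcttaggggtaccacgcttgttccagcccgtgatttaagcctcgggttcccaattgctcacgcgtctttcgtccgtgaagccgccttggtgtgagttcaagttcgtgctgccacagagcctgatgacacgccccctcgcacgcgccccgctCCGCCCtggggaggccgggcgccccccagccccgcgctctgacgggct
A GC box was present in 32.7% of 32851 RefSeq promoter windows of this length. The window held no TATAAA, which 12.4% of the windows held, no AP-1 motif TGANTCA, which 6.75% held, and no STAT motif TTCNNNGAA, which 7.02% held, each searched on both strands. No match says only that these letters are absent from this window.

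The libraries held 4561817 to 8093368 counts, so that 3 counts correspond to 0.348 to 0.737 CPM, the count relative to the library total after TMM scaling. All 12 stellate cell markers were detected in each culture. Their summed level averaged 7030, 9068 and 6051 CPM in mono-PSCs, 2W-PSCs and 3W-PSCs. The sum was lower in 3W-PSCs than in 2W-PSCs (two-sided exact permutation test, p = 0.0286). No difference from mono-PSCs was detected in 2W-PSCs (two-sided exact permutation test, p = 0.114) or 3W-PSCs (two-sided exact permutation test, p = 0.371). Markers of the other cultured cells were low but moved with the culture. The summed level of 13 macrophage markers lay between 9.74 and 11.9 CPM in mono-PSCs, between 13.5 and 19.8 CPM in 2W-PSCs and between 37.3 and 76.1 CPM in 3W-PSCs, with 6, 5 and 0 of them, respectively, at 0 in every library. *Ptprc*, *Tyrobp*, *Spi1* and *C1qa* were among those at 0 in the first 2 cultures. Others did not follow the presence of macrophages. *Csf1r* averaged 0.09 CPM in mono-PSCs, 2.35 ± 3.06 (SD) in 2W-PSCs and 2.31 ± 0.56 (SD) in 3W-PSCs, and *Mrc1* averaged 0, 1.40 and 3.22 CPM. Much of the sum was *Cd14*, which averaged 6.44, 8.65 and 22.8 CPM in mono-PSCs, 2W-PSCs and 3W-PSCs. The sum averaged 10.8, 16.0 and 49.8 CPM. *Cd14* was thus counted in cultures without macrophages, and its source in 3W-PSCs was not tested. The summed level of 12 epithelial markers was at most 3.30 CPM in mono-PSCs, between 75.6 and 148 CPM in 2W-PSCs and between 54.8 and 92.7 CPM in 3W-PSCs. *Epcam* was at 0 in every 2W-PSC library and *Cldn4* in all 12 libraries. Against mono-PSCs the macrophage and epithelial sums differed in both co-cultures (exact permutation test, p = 0.0286 each, the smallest that 4 against 4 can give). Of the macrophage markers 0 of 1 tested, 4 of 6 and 2 of 6 rose in 2W-PSCs against mono-PSCs, 3W-PSCs against mono-PSCs and 3W-PSCs against 2W-PSCs (edgeR, with 0 of the first by DESeq2 or at an unadjusted p under 0.05). Of the epithelial markers 5 of 5, 7 of 7 and 0 of 7 rose in the same order, and in the last comparison 3 had an unadjusted p under 0.05 and DESeq2 called 1 lower. Over all genes tested 0.839%, 13.4% and 5.73% rose in these comparisons. Markers near 0 in mono-PSCs, such as *Krt8* at 0.05 CPM and *Mrc1* at 0 CPM, had enough counts for a test only through the co-cultures in which they were high. The counts of markers that rose against mono-PSCs were thus partly set by the filter. Mitochondrially encoded genes held 7.39 to 8.19% of counts in 3W-PSCs and 3.10 to 7.38% in the other libraries. 2W-PSC replicate 2 stood apart, with a Spearman's rho of 0.858 to 0.920 to its own culture, and member values that move by more than 1.5 times without it are given both ways. The part of these differences in the results below was not tested.

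Elastin itself, the second fibrillin and both microfibril-associated genes were at or close to 0. *Eln*, the elastin gene, had no count in any of the 12 libraries, and neither had *Mfap4*, whose protein binds elastin and fibrillin. *Fbn2*, the fibrillin typical of developing tissue, had 2 counts in all, both in 2W-PSC replicate 4. *Mfap5*, the microfibril-associated glycoprotein MAGP-2, had 15 counts over 5 libraries. Those were 5 counts in mono-PSC replicate 1, 1 in 2W-PSC replicate 3 and 0, 4, 4 and 1 in 3W-PSC replicates 1 to 4. No comparison between cultures was possible for these 4 genes at this depth, and their zeros do not show that the RNA was absent.

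What remained of the elastic fibre set was 1 fibrillin and the fibulins. Reads of this 3′ assay come from the end of each transcript, so CPM can be set side by side between genes without division by length. Over the 12 libraries the mean level put *Fbln2* at rank 190 of 18377 genes with a count, *Fbln5* at 957, *Efemp1* at 1671, *Fbn1* at 1913, *Efemp2* at 3448 and *Fbln1* at 10827. The order of the mean levels in mono-PSCs was *Fbln2*, *Fbln5*, *Efemp1*, *Fbn1*, *Efemp2* and *Fbln1*. There the libraries of *Efemp1* overlapped those of *Fbn1*, as did those of *Fbn1* and *Efemp2*, while the other neighbours in this order were separate. In 3W-PSCs *Fbln5* had moved to the fourth place, and its libraries overlapped those of *Fbn1* above it and *Efemp2* below it.

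**Figure D1:**
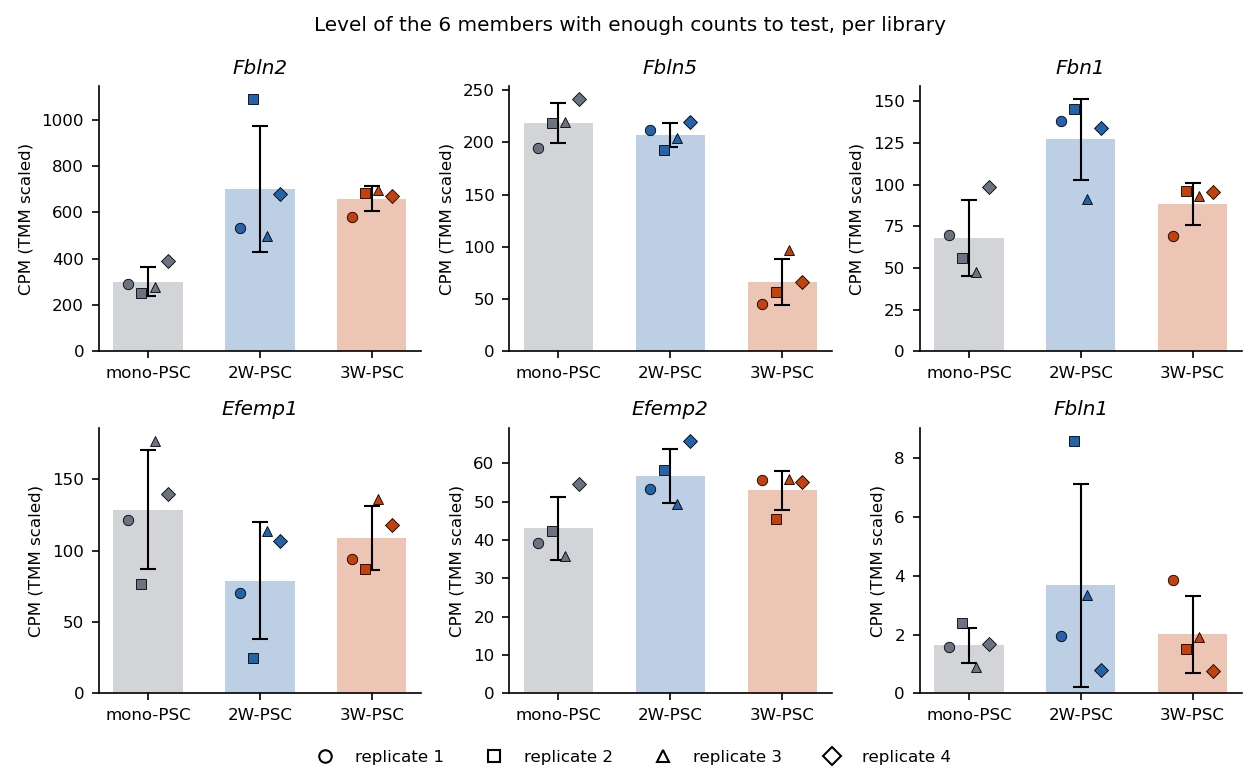
Level in CPM (linear axes from 0, TMM scaled) of the 6 tested members in each culture, where symbols are single libraries, bars are means and error bars are SD (n = 4). *Fbln2* stood between 251 and 390 CPM in mono-PSCs and at 499 CPM or more in every co-culture library, and *Fbln5* was at or below 96.8 CPM in 3W-PSCs and at or above 193 CPM elsewhere.

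*Fbln2* encodes fibulin-2, which binds fibrillin-1, elastin and basement membrane proteins. It was the most abundant member in every library, and its level was higher in both co-cultures. In mono-PSCs it stood at 289, 251, 277 and 390 CPM in replicates 1 to 4, a mean of 302 ± 60.6 (SD, n = 4). In 2W-PSCs the values were 533, 1091, 499 and 681 CPM, a mean of 701 ± 272 (SD, n = 4). In 3W-PSCs they were 579, 686, 697 and 673 CPM, a mean of 659 ± 53.9 (SD, n = 4). All 8 co-culture libraries thus lay above all 4 mono-culture libraries, and the co-cultures overlapped each other, with 2W-PSC replicate 2 far above the rest of its culture.

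Cultures were compared gene by gene with the quasi-likelihood test of edgeR, and a gene was called when its p, adjusted over all genes tested by the Benjamini-Hochberg method, was under 0.05. *Fbln2* rose 2.17-fold in 3W-PSCs against mono-PSCs, a log2 fold change (log2 FC) of 1.12 (SE 0.16, 95% interval 0.77 to 1.47, edgeR adjusted p = 7.52e-05). For 2W-PSCs against mono-PSCs the log2 FC was 1.24 (SE 0.27, 95% interval 0.65 to 1.83), and its edgeR adjusted p of 0.0553 missed the threshold. That call turned on the choice of fit: it passed in 5 of 14 alternatives, among them DESeq2 (adjusted p = 0.00116) and the edgeR fit of all 12 libraries (adjusted p = 0.00882). Without 2W-PSC replicate 2 the log2 FC was 0.93 and the edgeR adjusted p was 0.0173, and without 2W-PSC replicate 3 the latter was 0.0376. Between 3W-PSCs and 2W-PSCs the log2 FC of *Fbln2* was -0.09 (95% interval -0.62 to 0.44, edgeR adjusted p = 0.844), and without 2W-PSC replicate 2 it was 0.20.

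*Fbln5* encodes fibulin-5, the elastin-binding fibulin that also carries an RGD sequence recognised by integrins. It went the other way, and in 3W-PSCs alone. Its level in mono-PSCs was 195, 219, 220 and 242 CPM in replicates 1 to 4, a mean of 219 ± 19.2 (SD, n = 4), and in 2W-PSCs it was 212, 193, 204 and 220 CPM, a mean of 207 ± 11.3 (SD, n = 4). In 3W-PSCs the level was 45.4, 57.1, 96.8 and 66.7 CPM, a mean of 66.5 ± 22.0 (SD, n = 4). The 3W-PSC libraries did not overlap those of either other culture, whereas mono-PSCs and 2W-PSCs overlapped.

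*Fbln5* fell 3.30-fold in 3W-PSCs against mono-PSCs, a log2 FC of -1.72 (SE 0.20, 95% interval -2.14 to -1.30, edgeR adjusted p = 5.34e-06). Against 2W-PSCs it fell 3.12-fold, a log2 FC of -1.64 (SE 0.22, 95% interval -2.13 to -1.16, edgeR adjusted p = 0.00110). Both calls, and that of *Fbln2* in 3W-PSCs against mono-PSCs, held in all 14 alternatives run for them. Between 2W-PSCs and mono-PSCs the log2 FC was -0.06 with a 95% interval of -0.42 to 0.31 (edgeR adjusted p = 0.999). The comparisons share libraries, so the 2 falls are not independent of each other. The culture in which *Fbln5* fell was also the one with the highest summed macrophage markers (37.3 to 76.1 CPM, in part *Cd14*) and the highest mitochondrial shares. In 3W-PSCs the summed stellate cell markers also averaged less than in 2W-PSCs (6051 against 9068 CPM). The part of these differences in the fall was not tested. In sorted bulk RNA, fewer cells that express a gene and less RNA of it per cell cannot be told apart.

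*Fbn1* encodes fibrillin-1, the main microfibril protein of adult tissue. Its level in mono-PSCs was 69.9, 56.1, 47.3 and 98.8 CPM in replicates 1 to 4. The 2W-PSC libraries stood at 138, 146, 91.6 and 134 CPM, and those of 3W-PSCs at 69.2, 96.0, 93.0 and 95.3 CPM. The highest values were those of 2W-PSC replicates 1, 2 and 4, and each pair of cultures overlapped.

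For *Fbn1* the log2 FC of 2W-PSCs against mono-PSCs was 0.92 (SE 0.25, 95% interval 0.38 to 1.47), with an edgeR adjusted p of 0.151. It passed with DESeq2 (adjusted p = 0.0445) and in the edgeR fit of all 12 libraries (adjusted p = 0.0467), so the call turned on the fit. In 3W-PSCs the log2 FC was 0.37 against mono-PSCs (edgeR adjusted p = 0.201) and -0.53 against 2W-PSCs (edgeR adjusted p = 0.0997). Each of these passed when 1 library was left out. The first had an edgeR adjusted p of 0.0313 without mono-PSC replicate 4, and the second had 0.0300 without 2W-PSC replicate 3.

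*Efemp1* and *Efemp2* encode fibulin-3 and fibulin-4, the short fibulins most like each other, of which fibulin-4 is needed for elastic fibres to form. *Efemp1* stood at 122, 76.5, 177 and 140 CPM in mono-PSC replicates 1 to 4, at 70.6, 24.6, 114 and 107 CPM in 2W-PSCs, and at 94.1, 87.4, 136 and 118 CPM in 3W-PSCs. The lowest value was that of 2W-PSC replicate 2, the library with the highest *Fbln2*, and all cultures overlapped. The log2 FCs of *Efemp1* were -0.68 for 2W-PSCs against mono-PSCs, -0.25 for 3W-PSCs against mono-PSCs and 0.46 for 3W-PSCs against 2W-PSCs, none called (lowest edgeR adjusted p = 0.429). Without 2W-PSC replicate 2 the first was -0.40 and the last 0.16, and without mono-PSC replicate 3 the second was -0.06.

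*Efemp2* varied little, with 35.8 to 54.7 CPM for mono-PSCs, 49.5 to 66.0 CPM for 2W-PSCs and 45.4 to 55.8 CPM for 3W-PSCs. Its log2 FCs were 0.42, 0.29 and -0.10 in the same order, none called (lowest edgeR adjusted p = 0.224). The annotated 3′ end of the gene shares 173 bases with *Mus81* on the opposite strand. The strand setting of the counting is not given in the sources used here. Reads from the shared bases may thus have been left out of the counts or mixed between the 2 genes. The log2 ratio of *Efemp2* to *Efemp1* counts was -1.53 ± 0.61 (SD, n = 4) in mono-PSCs and -0.27 ± 1.06 (SD, n = 4) in 2W-PSCs, a difference of 1.27 (two-sided exact permutation test, p = 0.0571, adjusted p = 0.171 over 3 tests). Without 2W-PSC replicate 2 that difference was 0.77.

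*Fbln1*, the gene of fibulin-1, was close to the limit of detection, with 5 to 35 counts per library. It had 9, 12, 5 and 14 counts in mono-PSC replicates 1 to 4, 14, 35, 21 and 5 in 2W-PSCs, and 29, 13, 15 and 6 in 3W-PSCs. Its intervals were wide, with a log2 FC of 1.15 for 2W-PSCs against mono-PSCs (95% interval -0.34 to 2.65), 0.29 for 3W-PSCs against mono-PSCs (-0.89 to 1.48) and -0.82 for 3W-PSCs against 2W-PSCs (-2.36 to 0.72). Without 2W-PSC replicate 2, which had 35 counts, the first was 0.33 and the last -0.02. A change in *Fbln1* was not detectable at this depth.

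**Figure D2:**
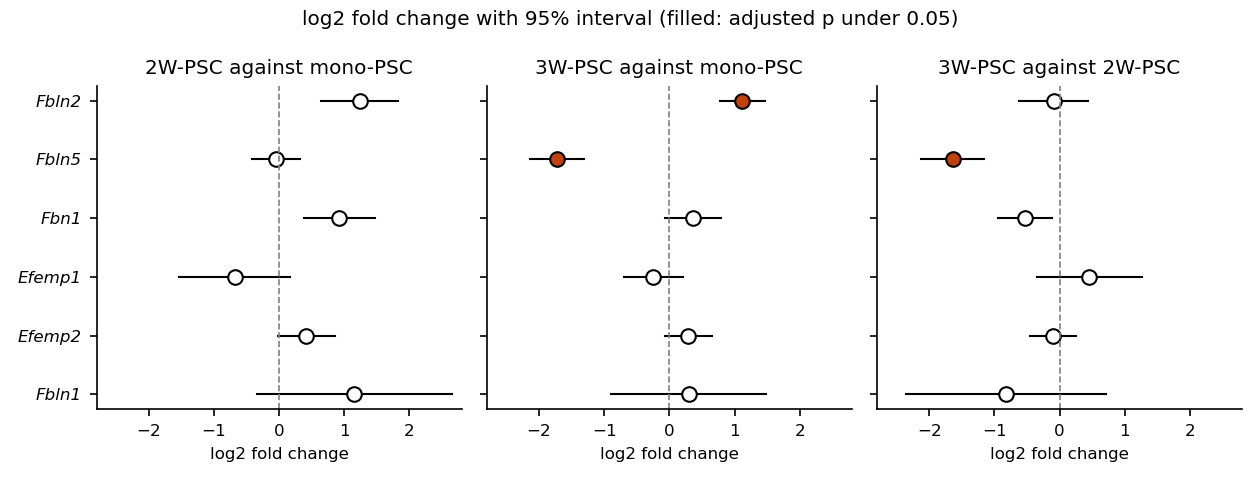
The log2 FC of the 6 tested members in the 3 comparisons (points) with 95% intervals (lines), where filled points have an edgeR adjusted p under 0.05 and the dashed line marks no change. *Fbln5* lies at -1.72 and -1.64 in the comparisons with 3W-PSCs and at -0.06 in the comparison without them.

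Counted over the tested members, 0 of 6 were called in 2W-PSCs against mono-PSCs by edgeR, where 0.991% of 11199 genes were called, 0.839% higher and 0.152% lower. At an unadjusted p under 0.05 there were 2 of 6, and DESeq2 called 2, both higher. In 3W-PSCs against mono-PSCs 1 member was called higher (*Fbln2*) and 1 lower (*Fbln5*) of 6, where 26.4% of 11551 genes were called, 13.4% higher and 13% lower. In 3W-PSCs against 2W-PSCs 0 were called higher and 1 lower (*Fbln5*), where 10.7% of 11513 genes were called, 5.73% higher and 4.95% lower. The libraries of the cultures did not overlap for 1, 2 and 1 of the 6 members in these comparisons, in the order given, and for 5.75%, 26% and 21.3% of all genes tested. The 2 of 6 called in 3W-PSCs against mono-PSCs is close to the share over all genes. The median log2 FC of the 6 was 0.67, 0.29 and -0.31 in the 3 comparisons, against 0.02, 0.01 and 0.00 over all genes tested.

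The make-up of the elastic fibre counts moved with these genes. Of the counts of all 10 members in a library, *Fbln2* held 36.6 to 42.1% in mono-PSCs, 51.9 to 71.7% with PCCs and 64.5 to 70.4% with PCCs and MØs. *Fbln5* held 26.1 to 33.8%, 12.7 to 21.3% and 5.36 to 8.95% in the same order. The share of *Fbln5* was thus separate between all 3 cultures, although its level was lower only in 3W-PSCs. In 2W-PSCs its share was smaller while its level overlapped that of mono-PSCs and the mean level of *Fbln2* was larger. *Efemp1* held 11.8 to 23.4% in mono-PSCs and 1.61 to 11.9% in 2W-PSCs. The shares of a library add up to a whole, so they are not independent and were not tested.

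**Figure D3:**
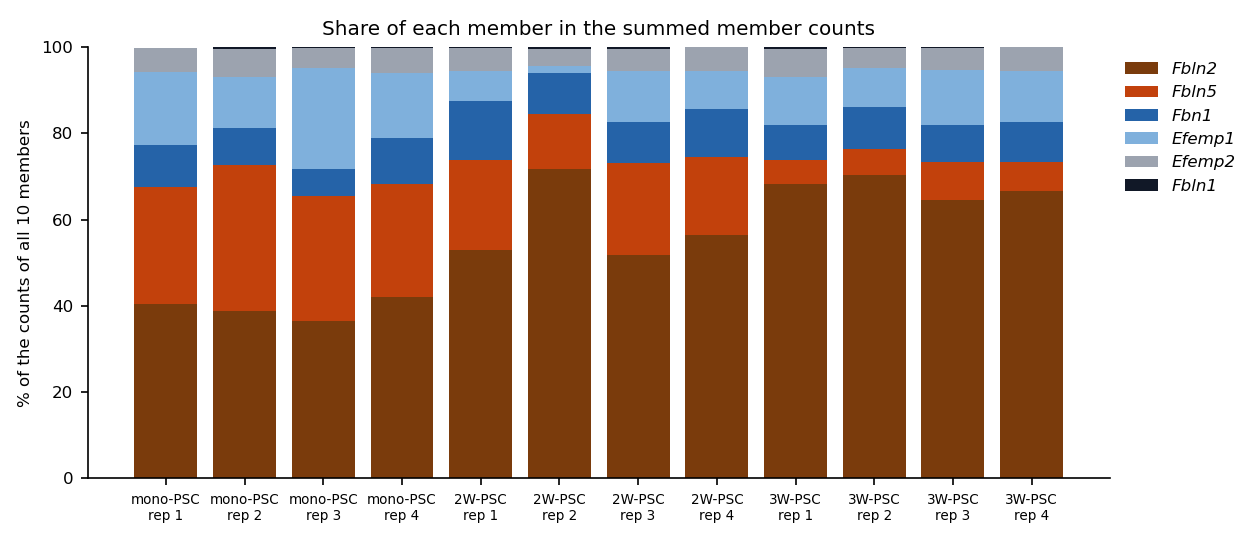
Percent of the counts of all 10 members that each of 6 members held, by library (stacked bars, 4 libraries per culture). The *Fbln2* part is 36.6 to 42.1% in mono-PSCs and 64.5 to 70.4% in 3W-PSCs, and the *Fbln5* part shrinks from 26.1 to 33.8% to 5.36 to 8.95%.

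The partners of the fibrillin microfibril showed the largest differences of the wider pathway. Of a list of 11 fibrillin, latent TGF-β binding protein, fibulin and TGF-β genes outside the 10 members, 8 were tested. In 2W-PSCs against mono-PSCs 2 rose and 0 fell, in 3W-PSCs against mono-PSCs 4 rose and 2 fell, and in 3W-PSCs against 2W-PSCs 2 rose and 2 fell. DESeq2 called 3 higher in the first of these. Over all genes tested 0.839% rose and 0.152% fell in the first comparison, 13.4% and 13% in the second and 5.73% and 4.95% in the third. *Ltbp2*, whose product binds fibrillin-1 and fibulin-5 but, unlike its relatives, no latent TGF-β, averaged 1.33 ± 0.29 CPM in mono-PSCs, 10.5 ± 4.62 in 2W-PSCs and 67.0 ± 17.9 in 3W-PSCs (SD, n = 4 each). It rose in all 3 comparisons, by log2 FCs of 2.99 in 2W-PSCs and 5.66 in 3W-PSCs against mono-PSCs and of 2.69 in 3W-PSCs against 2W-PSCs (edgeR adjusted p = 0.00601, 2.99e-10 and 0.000552).

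*Ltbp3*, which tethers latent TGF-β, rose from 57.9 ± 9.43 CPM in mono-PSCs to 129 ± 3.21 in 2W-PSCs (log2 FC 1.17, edgeR adjusted p = 0.00795, n = 4 each). It stood at 142 ± 7.05 CPM in 3W-PSCs, called against mono-PSCs (log2 FC 1.29, edgeR adjusted p = 9.29e-06) but not against 2W-PSCs (log2 FC 0.14, edgeR adjusted p = 0.539). *Ltbp1*, with the same task, averaged 71.5 ± 15.6 CPM with PCCs and 146 ± 11.7 CPM with PCCs and MØs (SD, n = 4) and rose in 3W-PSCs by 2.09 on the log2 scale against mono-PSCs and by 1.03 against 2W-PSCs (edgeR adjusted p = 2.70e-07 and 0.00512). In contrast, *Tgfb2*, which encodes one of the bound growth factors, averaged 24.2, 35.8 and 15.6 CPM in mono-PSCs, 2W-PSCs and 3W-PSCs and fell in 3W-PSCs against each of the other cultures (edgeR adjusted p = 0.0275 and 0.00793). *Tgfb3*, another such growth factor gene, was singled out after its values were seen. It averaged 6.96 CPM in mono-PSCs, 16.2 ± 8.81 (SD) in 2W-PSCs and 12.8 in 3W-PSCs. Its log2 FC of 1.24 in 2W-PSCs against mono-PSCs was not called (edgeR adjusted p = 0.486). In 3W-PSCs against mono-PSCs *Tgfb3* was called higher (edgeR adjusted p = 0.0364). That call was lost in 7 of 14 alternatives, with adjusted p up to 0.169. *Fbln7*, the gene of a fibulin relative, averaged 3.96, 5.92 and 1.12 CPM in mono-PSCs, 2W-PSCs and 3W-PSCs. It fell in 3W-PSCs by 1.79 against mono-PSCs and by 2.38 against 2W-PSCs (edgeR adjusted p = 0.0359 and 0.0386). The calls of the 3 *Ltbp* genes held in every alternative that tested them. The *Tgfb2* call against mono-PSCs was lost in the fit of all 12 libraries and without mono-PSC replicate 4, 3W-PSC replicate 2 or 3W-PSC replicate 4, with edgeR adjusted p from 0.0577 to 0.0990. The *Fbln7* call was lost against mono-PSCs without mono-PSC replicate 2 or 3 or 3W-PSC replicate 1, 2 or 3 (edgeR adjusted p from 0.0585 to 0.0872). Against 2W-PSCs it was lost without 2W-PSC replicate 1 or 4 or 3W-PSC replicate 2, 3 or 4 (edgeR adjusted p from 0.0557 to 0.104).

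Of 16 genes that assemble and cross-link the fibre 11 or 12 were tested, and in 2W-PSCs against mono-PSCs edgeR called 0 of 11, with 3 at an unadjusted p under 0.05 and 0 by DESeq2, where 0.991% of all genes were called. In 3W-PSCs against mono-PSCs 1 of 12 rose, where 13.4% of all genes did. This was *Loxl3*, a lysyl oxidase relative, which averaged 14.5 ± 3.09 CPM in mono-PSCs and 44.5 ± 1.68 in 3W-PSCs (log2 FC 1.60, edgeR adjusted p = 9.36e-06, n = 4 each). In 3W-PSCs against 2W-PSCs 1 of 12 fell, where 4.95% of all genes did. This was *Lox*, the principal elastin and collagen cross-linker, at 666 ± 149 and 405 ± 37.5 CPM in 2W-PSCs and 3W-PSCs (log2 FC -0.72, edgeR adjusted p = 0.0319, n = 4 each), a call lost without 2W-PSC replicate 4 or any one 3W-PSC library (edgeR adjusted p from 0.0579 to 0.110). *Lox* averaged 446 CPM in mono-PSCs, so the RNA of a cross-linker was plentiful in cells in which none of *Eln* was counted.

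Of 8 receptors for elastic fibre proteins 6 were tested, and 1 rose in 2W-PSCs against mono-PSCs, 3 rose in 3W-PSCs against mono-PSCs and 1 fell in 3W-PSCs against 2W-PSCs. Over all genes tested 0.839% rose in the first comparison, 13.4% rose in the second and 4.95% fell in the third. *Itgb5*, an integrin chain that pairs with the αv chain, averaged 88.8, 166 and 183 CPM in mono-PSCs, 2W-PSCs and 3W-PSCs. It rose by a log2 FC of 0.93 in 2W-PSCs and of 1.04 in 3W-PSCs against mono-PSCs (edgeR adjusted p = 0.0298 and 5.73e-05). The 2W-PSC call was lost when any single library other than 2W-PSC replicate 2 was left out (edgeR adjusted p from 0.0755 to 0.133). *Itga5*, the α5 chain, rose in 3W-PSCs by a log2 FC of 1.33 against mono-PSCs (edgeR adjusted p = 0.0176), a call lost without 3W-PSC replicate 1 (0.0584) or replicate 2 (0.0574). *Itgb3* averaged 1.39 CPM in mono-PSCs, 9.95 in 2W-PSCs and 1.80 in 3W-PSCs. Its log2 FC in 3W-PSCs against 2W-PSCs was -2.44 (edgeR adjusted p = 0.0166), a call also lost without 3W-PSC replicate 1 (0.0626) or replicate 2 (0.0663). Against mono-PSCs its log2 FC was 2.81 in 2W-PSCs and 0.35 in 3W-PSCs, neither called (edgeR adjusted p = 0.0907 and 0.750). Of 8 elastin-degrading proteases 3 were tested (*Mmp2*, *Ctsl* and *Ctsk*), with 0 called in any comparison by edgeR or by DESeq2 and 0 at an unadjusted p under 0.05.

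**Figure D4:**
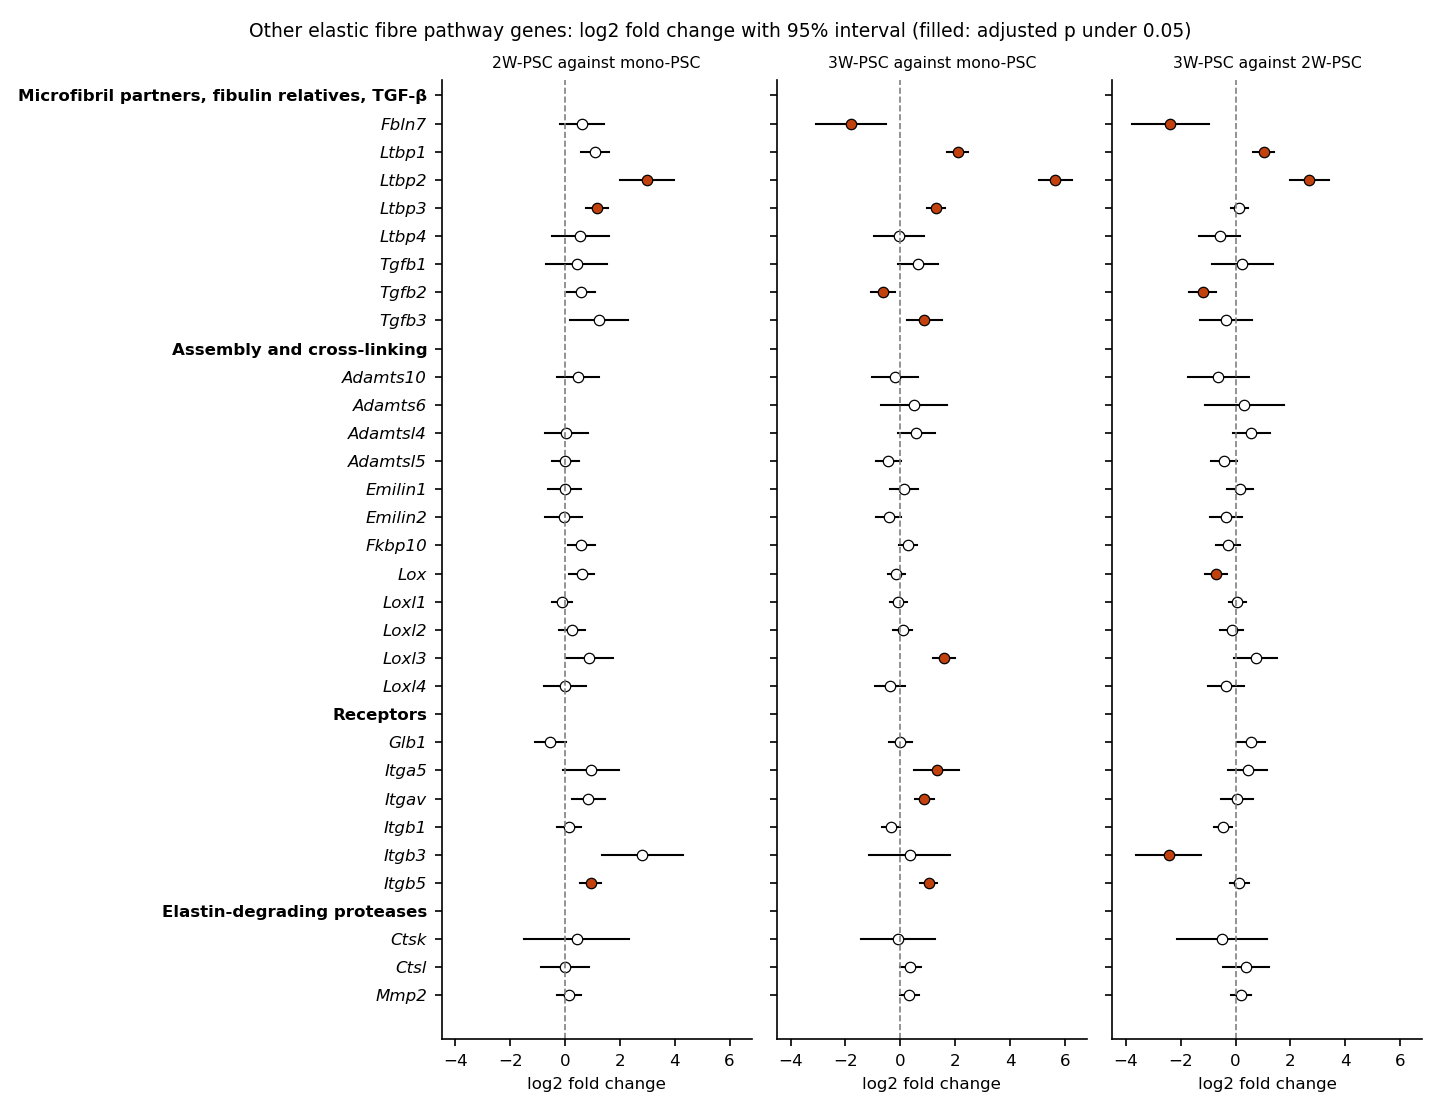
The log2 FC with 95% interval of the other elastic fibre pathway genes that were tested, grouped by list, in the 3 comparisons (filled points have an edgeR adjusted p under 0.05, and the dashed line marks no change). *Ltbp2* lies farthest to the right, at 5.66 in 3W-PSCs against mono-PSCs, while the 3 proteases have no filled point.

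Among the stellate cell markers the pattern of *Fbln5* can be set beside those of other matrix genes, which did not all share it. Of 11 markers tested in 3W-PSCs against mono-PSCs 2 rose and 2 fell, and of 10 tested against 2W-PSCs 2 rose and 5 fell. Over all genes tested 13.4% rose and 13% fell in 3W-PSCs against mono-PSCs, and 5.73% and 4.95% against 2W-PSCs. *Col3a1*, a fibrillar collagen gene, averaged 524, 454 and 136 CPM in mono-PSCs, 2W-PSCs and 3W-PSCs and fell in 3W-PSCs by 1.95 against mono-PSCs and by 1.74 against 2W-PSCs on the log2 scale (edgeR adjusted p = 3.04e-07 and 0.000538). The matrix genes *Col1a1*, *Col1a2* and *Dcn* were not called in 3W-PSCs against mono-PSCs (log2 FC -0.33, -0.06 and -0.05). Against 2W-PSCs *Col1a1* and *Dcn* fell (log2 FC -0.84 and -0.98, edgeR adjusted p = 0.0157 and 0.0262) and *Col1a2* was not called. *Acta2*, the myofibroblast actin, rose in 2W-PSCs by 2.16 against mono-PSCs and was lower in 3W-PSCs by a log2 FC of -2.55 against 2W-PSCs (edgeR adjusted p = 0.000656 and 2.69e-05). *Pdgfra*, which encodes a receptor for platelet-derived growth factors, rose in 3W-PSCs by 2.33 against mono-PSCs (edgeR adjusted p = 7.42e-07).

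Over the 12 libraries the log2 CPM of the members was also compared with that of 11049 other genes, as a description, since the libraries share their cultures and the points fall into groups. The genes most like *Fbln2* were *Por* (Pearson's r = 0.97), which encodes a reductase that serves cytochrome P450 enzymes, and *Itgav* (r = 0.96), the αv integrin chain of the receptor list. Those most like *Fbln5* were *Slc9a3r2* (r = 0.97) and *Prelp* (r = 0.96), the latter a small leucine-rich proteoglycan of the matrix that averaged 19.8, 17.9 and 4.29 CPM in mono-PSCs, 2W-PSCs and 3W-PSCs. For *Fbn1* they were *Col4a2* (r = 0.94), a basement membrane collagen chain, and *Adcyap1r1* (r = 0.90). *Efemp1* was closest to *Mcm2* and *Anxa4* (r = 0.95 each), *Efemp2* to *Tmem104* and *Gm10307* (r = 0.88 each), and *Fbln1*, at its few counts, to *Tnfrsf11a* (r = 0.90) and *Dus1l* (r = 0.85). Among the members themselves r was 0.78 for *Fbn1* and *Fbln2*, 0.79 for *Fbn1* and *Efemp2*, 0.77 for *Fbln2* and *Efemp2*, and -0.42 for *Fbln2* and *Fbln5*.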

How the data were processed

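RNA of PSCs sorted from 3 cultures was measured in 12 libraries. The authors prepared QuantSeq 3′ libraries, and their processing notes name FastQC for read quality, STAR for alignment to GRCm38 after trimming and featureCounts for counting. The authors deposited raw counts, one whole number for each gene and library. Columns were matched to samples by the sample number they carry, and all were used. Molecular identifiers are not named in the sources used here, so limits set by depth cover counting error only. The strand setting is not given in the sources used here.

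Cultures were compared in pairs in edgeR 4.0.16 (R 4.3.3) with TMM scaling, filterByExpr, glmQLFit and glmQLFTest. Each fit held the 8 libraries compared and no block. P-values were adjusted over all genes tested, with a threshold of 0.05. SEs came from the log2 fold change and the F statistic. The scripts were checked on simulated data. For single values an exact two-sided permutation test was used, whose smallest p with 4 against 4 is 0.0286. Promoter windows were taken from RefSeq, which had them for 6 of the 10 members, and gene positions from GENCODE M21. The *Fbln2* window is not shown because it lies in an exon of GENCODE M21.

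The alternatives were no filter, at least 10 counts in every library, the size factors of DESeq2 in place of TMM, the Wald test of DESeq2 1.42.0, all 12 libraries in 1 fit, the replicate number as a block, and leaving out each library.

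The members and lists were chosen with earlier results of these data known. Named were all 10 members, from the other lists up to 2 called genes with the largest change per direction and comparison, and the 2 genes most like each tested member by Pearson's r of log2 CPM (prior count 2). Further cell type markers, among them *Col1a1*, *Col1a2* and *Dcn*, were named outside this rule. The full genotype of the PCC line is not reported here.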

Additional observations from a re-analysis of the deposited data

Results flagged for a closer look

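In 3W-PSCs *Fbn1* stood at 69.2 CPM in replicate 1 and at 93.0 to 96.0 CPM in the other libraries, a gap that is large for a group of 4. In the same culture *Efemp2* stood at 45.4 CPM in replicate 2 and at 55.3 to 55.8 CPM in the others. These were 2 of 18 groups of 4 libraries examined in this way, and chance alone sets apart about 1 in 20.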

How the results depend on the processing

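The fall of *Fbln5* in both comparisons with 3W-PSCs and the rise of *Fbln2* in 3W-PSCs against mono-PSCs held in all 14 alternatives. In 2W-PSCs against mono-PSCs 111 genes were called. The count was 177 with no filter, 57 with at least 10 counts in every library, 275 with DESeq2, 262 with all 12 libraries in 1 fit and 61 to 233 with 1 library left out, the highest without 2W-PSC replicate 2. The called members there numbered 0, against 1 with no filter, 2 with DESeq2, 2 with all 12 libraries and 0 to 1 with 1 library left out. In 3W-PSCs against 2W-PSCs 1230 genes were called, and 497 (without 3W-PSC replicate 2) to 2107 (without 2W-PSC replicate 2) with 1 library left out, while the called members there numbered 1 to 2. The log2 FC of *Fbln1* in 3W-PSCs against mono-PSCs was 0.29 with all libraries, -0.22 without 3W-PSC replicate 1 and at most 0.56 with 1 library left out. The log2 FC of *Fbln2* in 3W-PSCs against 2W-PSCs was -0.09 with all, 0.20 without 2W-PSC replicate 2 and -0.23 at the lowest. Neither was called. The cause of these moves was not tested. *Fbln1* was not tested with at least 10 counts in every library.

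In no comparison did every pair of same-numbered libraries correlate above 0.1, so the numbers were not taken as a pairing. Deviations of same-numbered libraries correlated at 0.0990 to 0.338 in 2W-PSCs and mono-PSCs, at 0.00264 to 0.107 in 3W-PSCs and mono-PSCs and at -0.0476 to 0.155 in 3W-PSCs and 2W-PSCs. Of 8 libraries 6, 4 and 3, respectively, correlated best with their own number. With the block 135, 3092 and 752 genes were called in 2W-PSCs against mono-PSCs, 3W-PSCs against mono-PSCs and 3W-PSCs against 2W-PSCs, and 1, 2 and 1 members. The member gained was *Fbn1* (edgeR adjusted p = 0.0469), and the calls of *Fbln7* and *Lox* in 3W-PSCs against 2W-PSCs were lost (edgeR adjusted p = 0.0634 and 0.0726).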
